A study of Mus musculus with 6 samples.

Results

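The genes described here are 10 components of the actin cytoskeleton that are best known from smooth muscle and from cells with contractile stress fibres. They are Acta2, Tagln, Cnn1, Cnn2, Myl9, Tpm1, Tpm2, Flna, Flnc and Actn1. They were chosen by name, as known contractile and actin crosslinking genes of mesenchymal cells, with earlier results of these data known. Together they make up 10 of the 43548 gene identifiers in the deposited table. All 10 were found, and 6 of them reached the mean of 1 FPKM (read fragments scaled to transcript length and to the mapped fragments of the library) that was required for testing, against 12879 genes in all.

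Gene expression was measured by RNA-seq in Met-1 TripZ-200c cells, in 3 libraries without and 3 libraries with doxycycline (Dox). Met-1 is a mouse mammary carcinoma line that came from a late-stage tumour of the MMTV-PyMT model on the FVB/NJ strain background. All 6 libraries carry the same lentiviral pTripZ vector, in which Dox switches on a red fluorescent protein together with the precursor of miR-200c, a microRNA that represses the transcription factors of epithelial to mesenchymal transition (EMT). The cells were 1 clone, picked by flow cytometry for no leaky and for intermediate fluorescence. The groups were vehicle (water) and 1 µg/mL Dox, both for 48 h, each from cultures plated in triplicate. The p-values therefore measure the spread between parallel cultures of 1 clone, and no library of cells carrying an empty vector was analysed here, so that miR-200c and Dox itself cannot be told apart.

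Actin filaments in a contractile cell are built from an actin isoform and decorated by tropomyosins, which govern the access of myosin, by calponins and transgelins, which bind along the filament, and by the regulatory light chain of myosin II, whose phosphorylation switches the motor on. Filamins and alpha-actinins crosslink the filaments into networks and bundles. Most of these proteins come from small gene families in which 1 or a few isoforms are typical of muscle and the others are made in nearly all cells, and the muscle-type genes are classic targets of serum response factor (SRF) acting through CArG boxes, with its coactivators myocardin and the MRTFs. In carcinoma cells, several of them are widely used as markers of a mesenchymal or myofibroblast-like state.

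The sum of the FPKM values ran from 800267.5 to 815138.7 over the 6 libraries, and 16867 to 18012 genes were above 0. Zeb1 and Zeb2, EMT transcription factors that miR-200c directly represses, served as the check of the treatment. Zeb1 was at 41.8 ± 0.682 FPKM without and 21.2 ± 2.05 with Dox (SD, n = 3 each), and Zeb2 at 29.3 ± 1.43 and 8.29 ± 0.661. In limma (Benjamini-Hochberg adjustment over all 12879 genes tested), the adjusted p was 3.62e-04 for Zeb1 and 4.48e-05 for Zeb2. Vim, the mesenchymal intermediate filament, stood at 3961 ± 110 FPKM without and 3104 ± 86.9 with Dox, and Krt18, an epithelial keratin, at 93.2 ± 2.78 and 386 ± 19.6. Other epithelial markers were far lower than Krt18. Krt8 was at 0.262 ± 0.11 FPKM without and 0.736 ± 0.164 with Dox. Cdh1 was at 0.0585 ± 0.018 and 0.828 ± 0.361 FPKM, and Epcam at 0.128 ± 0.0394 and 4.06 ± 0.225. Of the defining markers of other cell types, 5 of 6 for basal and myoepithelial cells stayed under 1 FPKM in every library, with Krt5 listed at 0, as did 5 of 7 for fibroblasts, with Lum and Fap listed at 0, 4 of 6 for pericytes and endothelium, and 3 of 4 for immune cells, with Cd3e listed at 0. The summed level of the fibroblast list, carried by Pdgfra and Pdgfrb, ran from 50.9 to 53.4 FPKM without and from 30.7 to 33.0 with Dox, and that of the basal and myoepithelial list, cells that normally transcribe Acta2 and Tagln, from 1.48 to 2.15 and from 1.94 to 2.21 FPKM. The sums for pericytes and endothelium were 15.3 to 17.4 and 14.1 to 16.2 FPKM, and those for immune cells 6.35 to 11.3 and 6.72 to 7.56 FPKM. By their means over the 6 libraries, Mcam (11.1 FPKM) and Cdh5 (4.3) carried the pericyte and endothelium sum. Cd68 (8.09 FPKM) carried the immune sum and Trp63 (1.74) the basal and myoepithelial sum. The part of such cell types in the other results was not tested.

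The mature miR-200c that Dox induces is shown because its seed is the part that pairs with targets. The sequence comes from RefSeq (GRCm38.p6, chr6:124718324-124718346, minus strand), is written 5′ to 3′, and has the seed, bases 2 to 8, in capitals.
mmu-miR-200c-3p: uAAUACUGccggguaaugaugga

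Of the members, 4 smooth muscle isoforms were at or near 0 in Met-1 TripZ-200c cells, with or without Dox. Acta2, Tagln, Myl9 and Cnn1, respectively the smooth muscle actin, the smooth muscle transgelin, the smooth muscle regulatory light chain and the smooth muscle calponin, added up to 0.858, 0.874 and 1.18 FPKM in the libraries without Dox and to 1.12, 1.04 and 0.611 FPKM in those with Dox. The other 6 members added up to 1449 ± 29.9 FPKM without and 1538 ± 24.3 with Dox (SD, n = 3 each). Of the 6 that were tested, Actn1 rose, Flnc fell, and Cnn2, Tpm1, Tpm2 and Flna did not pass the threshold. Among all genes tested, 15.0% passed it, 7.06% higher and 7.97% lower with Dox, so that 2 of 6 members past the threshold and 1 in each direction is a count to be read beside those shares. In 4 of the 6 (Tpm1, Tpm2, Flnc and Actn1) the 3 libraries of one group lay all on one side of the other 3, against 35.0% of all genes. The median log2 fold change of the 6 was 0.12, and that of all genes tested was 0.004 with quartiles of -0.13 and 0.12. In these whole cultures, fewer cells that make a transcript and less of it per cell cannot be told apart.

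**Figure D1:**
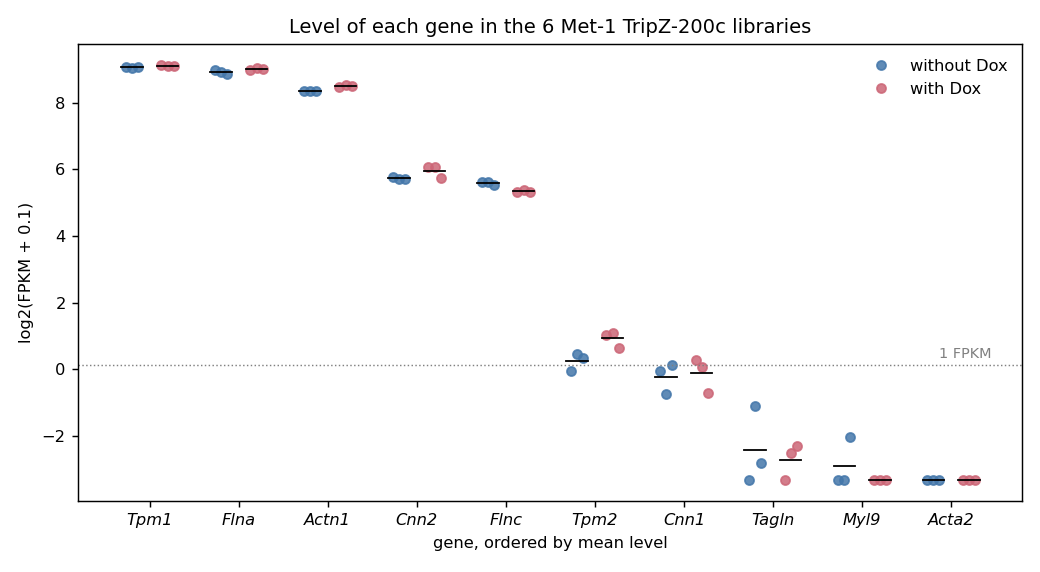
Level of each of the 10 genes in each library, as log2(FPKM + 0.1) on the vertical axis, with blue points for the 3 libraries without Dox, red points for the 3 with Dox and a black line for each group mean. Tpm1, Flna and Actn1 lie above 8, Cnn2 and Flnc between 5 and about 6, and Cnn1, Tagln, Myl9 and Acta2 lie around or under the dotted line at 1 FPKM in both groups.

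Acta2 (ENSMUSG00000035783, GRCm38 chr19:34241090-34255590, minus strand) encodes smooth muscle alpha-actin, the most used marker of myofibroblasts. It was listed at 0 in all 6 libraries. All 37 mitochondrial genes in the table, which every cell transcribes, were also listed at 0 in all 6 libraries, so a listed 0 in this table is not by itself a measured absence. Of the windows of 50 bases, 1 read length, in the longest Acta2 transcript, 2.92% recur with at most 2 mismatches in a transcript of another gene, 14 genes in all. The share was 3.19% for Cnn2, 3.18% for Actn1, 1.85% for Myl9, 0.107% for Flna and 0.10% for Flnc, and 0 for the other 4 members, so nearly all of each member's sequence is its own.

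Tagln (ENSMUSG00000032085, chr9:45929619-45936058, minus strand) encodes transgelin, or SM22-alpha, an early marker of smooth muscle. It was at 0, 0.369 and 0.0432 FPKM in libraries 1, 2 and 3 of the vehicle group and at 0, 0.0759 and 0.102 FPKM with Dox. One library of each group was at 0 and the groups overlapped. In a fit without the filter on low values the log2 fold change was -0.31 (SE 0.628, limma adjusted p = 0.818 over 20513 genes, of which 7.84% passed the threshold), and without library 2 of the vehicle group it was 0.35. Its exons overlap those of Pcsk7 and Gm48529 on the opposite strand, and how the counting used strand was not given in the sources used here.

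Myl9 (ENSMUSG00000067818, chr2:156775420-156781658, plus strand), the regulatory light chain that pairs with smooth muscle myosin, was at 0, 0 and 0.147 FPKM without Dox and was listed at 0 in all 3 libraries with Dox. A single vehicle library thus held all of its signal. Cnn1 (ENSMUSG00000001349, chr9:22099216-22109630, plus strand), or basic calponin, which binds actin and inhibits myosin ATPase in smooth muscle, was the only one of the 4 above 0 in every library. It was at 0.858, 0.505 and 0.984 FPKM in the vehicle libraries and at 1.12, 0.961 and 0.509 FPKM under Dox. The groups overlapped over nearly their whole range, with a log2 fold change of 0.11 in the fit without the filter (SE 0.403, limma adjusted p = 0.905). That sign was not stable, since the value was -0.14 without vehicle library 2 and -0.09 without Dox library 1.

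Of 12 further genes of differentiated smooth muscle, 7 had a mean under 1 FPKM, among them Myh11, smooth muscle myosin heavy chain at no more than 0.0601 FPKM in any library, and Actg2, smooth muscle gamma-actin, at no more than 0.393. Des (desmin) and Kcnmb1, a potassium channel subunit, were listed at 0 in all 6 libraries. Myocd, or myocardin, was above 0 in 1 of the 6 libraries, at 0.0234 FPKM without Dox. The other 5 were higher, over the 6 libraries Cald1 (caldesmon) at a mean of 234 FPKM, Hspb6 at 144, Csrp1 at 76.9, Smtn at 56.3 and Mylk (myosin light chain kinase) at 3.75. All 5 were tested, with a list median of -0.15 on the log2 scale. Of them, 1 passed the threshold in each direction, beside 7.06% higher and 7.97% lower among all genes tested. Named after their values were seen, these were Smtn, or smoothelin, an actin-binding protein (52.5 ± 1.62 FPKM without and 60.1 ± 1.31 with Dox, log2 fold change 0.19, limma adjusted p = 0.0258), and Hspb6, a small heat shock protein known for roles in muscle relaxation (170 ± 7.86 and 119 ± 3.19 FPKM, -0.52, adjusted p = 5.60e-04). The adjusted p of Smtn stayed under 0.05 in 8 of 15 alternative analyses and that of Hspb6 in 15 of 15.

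The 6 tested members spanned a wide range of levels. Since FPKM is per length, the levels can be set side by side, and over the 6 libraries Tpm1 had a mean of 545 FPKM, Flna 502, Actn1 343, Cnn2 57.8, Flnc 44.2 and Tpm2 1.46. Tpm1 and Flna could not be ordered, as the lowest library of Tpm1 (523.4 FPKM) was below the highest of Flna (532.2). Every other pair of neighbours in this order was separated in all 6 libraries. Tpm1 was above 98.7% of the genes tested, Flna above 98.6% and Actn1 above 97.4%, whereas Tpm2 was above 4.17%.

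Actn1 (ENSMUSG00000015143, chr12:80167547-80260371, minus strand) encodes alpha-actinin-1, which crosslinks actin filaments in stress fibres and anchors them at focal adhesions. It was at 330.1, 325.6 and 324.1 FPKM in the 3 vehicle libraries and at 353.9, 367.3 and 359.5 FPKM in the 3 with Dox. Every library with Dox was above every library without, and the spread within a group was small, with a coefficient of variation of 0.951% without and 1.88% with Dox. The mean rose from 327 ± 3.11 to 360 ± 6.76 FPKM, by 10.3%, a log2 fold change of 0.14 (SE 0.0270, limma adjusted p = 0.0152). The adjusted p was under 0.05 in 11 of 15 alternatives and ran from 0.0097 to 0.0781. In 3 of the other 4 it was 0.0781 when limma was run without the trend, 0.0544 without vehicle library 2 and 0.0574 without Dox library 3. Exons of Actn1 overlap Gm47767 and Gm47766 on the opposite strand.

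Flnc (ENSMUSG00000068699, chr6:29433256-29461883, plus strand) encodes filamin C, the filamin typical of striated muscle, which crosslinks actin and is best known from the Z-discs of muscle fibres. It was at 49.0, 48.7 and 45.9 FPKM in the vehicle libraries and at 39.6, 41.6 and 40.1 FPKM under Dox. The lowest library without Dox was above the highest with Dox. The mean fell from 47.9 ± 1.73 to 40.5 ± 1.05 FPKM, to 0.846 of its level without Dox (log2 fold change -0.24, SE 0.0475, limma adjusted p = 0.0166). In 11 of 15 alternatives the adjusted p was under 0.05. In the other 4 it was 0.0522 without vehicle library 1, 0.0580 without vehicle library 2, 0.0554 without Dox library 1 and 0.0623 without Dox library 3, with log2 fold changes of -0.22 to -0.24.

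Flna (ENSMUSG00000031328, chrX:74223461-74249820, minus strand) encodes filamin A, the filamin of most nonmuscle cells, which makes orthogonal actin networks and links them to integrins. It was at 510.4, 481.7 and 467.8 FPKM in the vehicle libraries and at 503.6, 532.2 and 517.1 FPKM under Dox. Vehicle library 1 was above Dox library 1, so the groups overlapped. The log2 fold change was 0.09 (SE 0.0394, limma adjusted p = 0.186), and it lay between 0.06 and 0.12 in all 15 alternatives without passing the threshold in any of them.

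Tpm1 (ENSMUSG00000032366, chr9:67022590-67049406, minus strand) encodes alpha-tropomyosin, a gene with 21 annotated transcripts whose muscle and nonmuscle products arise by alternative promoters and splicing. The table holds 1 value per gene and so does not separate them. Tpm1 was at 538.5, 523.4 and 540.1 FPKM in the vehicle libraries and at 565, 555.4 and 546.8 FPKM under Dox. The groups did not overlap, but the gap was small beside the level, 534 ± 9.19 against 556 ± 9.10 FPKM (log2 fold change 0.06, SE 0.0264, limma adjusted p = 0.201). Tpm2 (ENSMUSG00000028464, chr4:43514711-43523765, minus strand), or beta-tropomyosin, was at 0.870, 1.28 and 1.18 FPKM in the vehicle libraries and at 1.96, 2.04 and 1.47 FPKM under Dox. Its groups did not overlap either. Its log2 fold change of 0.67 was the largest of the 6 tested members, with the largest error (SE 0.278, limma adjusted p = 0.161), and at this level the coefficient of variation was 19.0% without and 16.9% with Dox.

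Cnn2 (ENSMUSG00000004665, chr10:79988584-79996062, plus strand) encodes calponin-2, the calponin of epithelial, blood and other nonmuscle cells. It was at 55.1, 52.9 and 51.8 FPKM in the vehicle libraries and at 66.8, 66.7 and 53.5 FPKM under Dox. Dox libraries 1 and 2 stood above every vehicle library, while Dox library 3 fell among them. The coefficient of variation was 3.19% without and 12.3% with Dox. The log2 fold change was 0.22 (SE 0.0897, limma adjusted p = 0.160), and without Dox library 3 it was 0.32 with an adjusted p of 0.0171.

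**Figure D2:**
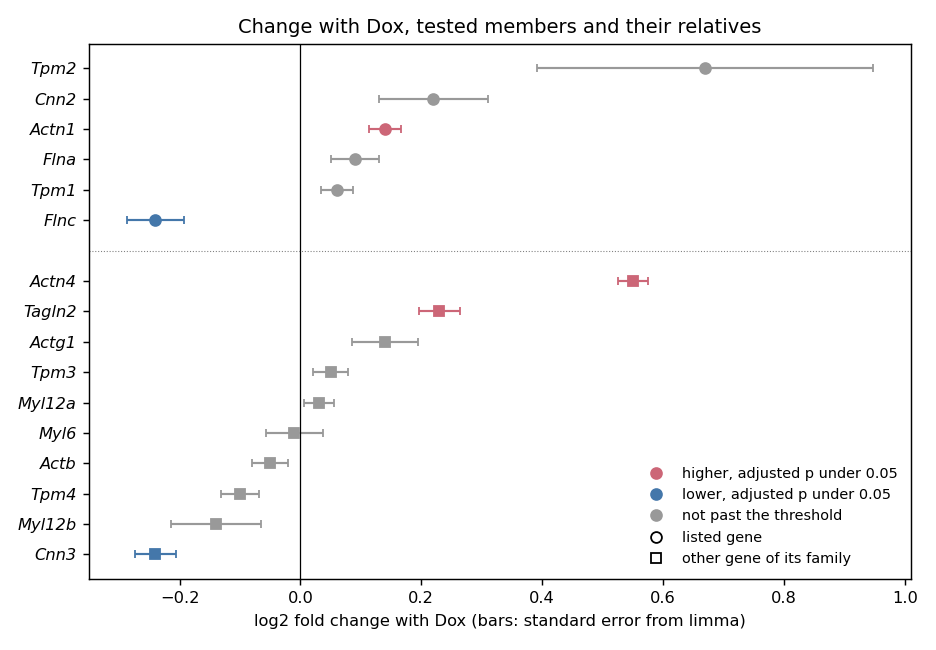
Log2 fold change with Dox (horizontal axis, on the log2(FPKM + 0.1) scale) and its limma standard error (bars) for the 6 tested members (circles) and for the 10 tested relatives (squares), coloured by the call at an adjusted p of 0.05. Among the circles Actn1 lies at 0.14 and Flnc at -0.24, both with short bars, and Tpm2 lies at 0.67 with a bar that is the longest of all, and among the squares Actn4 lies farthest out at 0.55.

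Of 16 further genes of the same families, with Myl6 as the essential light chain beside Myl9, 10 were tested. Of these, 2 rose, 1 fell and 7 did not pass the threshold, beside 7.06% higher and 7.97% lower among all genes tested. The median log2 fold change of the 10 was 0.01. The other 6 were under a mean of 1 FPKM, of which Tagln3 and Actn2 were listed at 0 in every library. Acta1 (skeletal muscle actin) did not exceed 0.262 FPKM in any library, Actc1 (cardiac actin) 0.0827 FPKM and Actn3 (fast muscle alpha-actinin) 0.311 FPKM.

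In the actin family, Actb stood at 5139 ± 89.8 FPKM without and 4969 ± 177 with Dox, and Actg1, the other cytoplasmic actin, at 3063 ± 118 and 3378 ± 251. Neither passed the threshold (log2 fold change -0.05, adjusted p = 0.325, and 0.14, adjusted p = 0.142, limma), and over the 15 alternatives the value of Actb ran from -0.08 to 0.18 and that of Actg1 from 0.08 to 0.29. Under quantile normalization both passed as higher, with adjusted p values of 0.00302 and 0.0170. The share of Actb in the summed FPKM of the 6 actins was 62.7% ± 0.50 without and 59.6% ± 0.91 with Dox, and that of Actg1 37.3% ± 0.50 and 40.4% ± 0.91. The groups did not overlap in either share, which with 3 against 3 libraries gives the smallest two-sided p that an exact permutation test allows, 0.1. Of the 50-base windows of the Actb transcript, 54.7% recur in other genes, and of those of Actg1 56.7%, mostly in Gm12715, so the values of both are uncertain.

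In the transgelin family, Tagln2, the transgelin of nonmuscle cells, made up 99.9% or more of the summed FPKM in every library. It was at 449.7, 427.6 and 446.8 FPKM in the vehicle libraries and at 509, 536.2 and 506.7 FPKM under Dox, with all libraries with Dox above all without. Its log2 fold change was 0.23 (SE 0.0343, limma adjusted p = 0.00593), and it passed the threshold in 15 of 15 alternatives. In the calponin family, Cnn3, acidic calponin, was the main gene and moved the other way. It was at 309.1, 317.9 and 324 FPKM in the vehicle libraries and at 269.1, 277.7 and 260.9 FPKM under Dox, again without overlap (log2 fold change -0.24, SE 0.0345, limma adjusted p = 0.00538, 15 of 15 alternatives). Of the 50-base windows of Cnn3, 29.9% recur in Gm4815, so its level is uncertain.

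Within the calponin pool, Cnn2 was 15.1%, 14.2% and 13.8% of the summed calponin FPKM without Dox and 19.8%, 19.3% and 17.0% with Dox, so the groups did not overlap in the share although they did in the level of Cnn2. The share of Cnn3 was 85.4% ± 0.68 without and 81.0% ± 1.6 with Dox (exact permutation test, p = 0.1 for both genes, the smallest possible). Cnn1 held 0.211% ± 0.066 and 0.257% ± 0.087 (exact permutation test, p = 0.5). The summed level of the family was 371.0 ± 5.87 FPKM without and 332.4 ± 15.7 with Dox, a ratio of 0.896.

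Of 6 families summed, alpha-actinin had the largest ratio between the groups in its sum. Actn4, the alpha-actinin of motile nonmuscle cells, was at 436.8, 431.6 and 436.7 FPKM in the vehicle libraries and at 626.5, 633.1 and 646.4 FPKM under Dox, far outside the spread of either group. It rose 1.46-fold (log2 fold change 0.55, SE 0.0244, limma adjusted p = 4.48e-05), and passed the threshold in 15 of 15 alternatives. The sum of the 4 alpha-actinins was 761.8 ± 4.91 FPKM without and 995.6 ± 13.5 with Dox, a ratio of 1.31. Actn1 thus rose in level but held a smaller share. Its part of the sum was 43.0%, 43.0% and 42.6% without Dox and 36.1%, 36.7% and 35.7% with Dox, a difference of -6.69 percentage points with no overlap (exact permutation test, two-sided p = 0.1, the smallest possible).

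The tropomyosin sum was 1355 ± 16.5 FPKM without and 1359 ± 5.41 with Dox. Within it the share of Tpm1 went from 39.4% ± 0.52 to 40.9% ± 0.82 and Tpm2 from 0.0817% ± 0.016 to 0.134% ± 0.023, and Tpm4 from 34.1% ± 0.69 to 31.7% ± 0.33, each without overlap between the groups (exact permutation test, p = 0.1 each). The share of Tpm3 went from 26.4% ± 0.67 to 27.3% ± 0.58, with overlap between the groups (exact permutation test, p = 0.2). Tpm4 was at 462 ± 14.8 and 431 ± 6.10 FPKM (log2 fold change -0.10, limma adjusted p = 0.0795) and Tpm3 at 358 ± 5.39 and 371 ± 9.13 FPKM (0.05, adjusted p = 0.306). Of their 50-base windows, 26.0% of those of Tpm4 recur in Gm7809 and 21.5% of those of Tpm3 in Tpm3-rs7, so their values are uncertain.

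Of the myosin light chains, Myl12a was at 823 ± 6.75 FPKM without and 838 ± 17.7 with Dox, and Myl12b at 211 ± 22.0 and 191 ± 8.68. These are the nonmuscle regulatory light chains, and Myl9 reached at most 0.0139% of the sum of the 3 in any library. Of the 50-base windows of Myl12a, 31.8% recur in Myl12b, so the split between them is uncertain. Myl6, the essential light chain, was at 586 ± 39.4 and 580 ± 7.10 FPKM. None of the 3 passed the threshold (limma adjusted p = 0.560, 0.272 and 0.905 in that order).

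**Figure D3:**
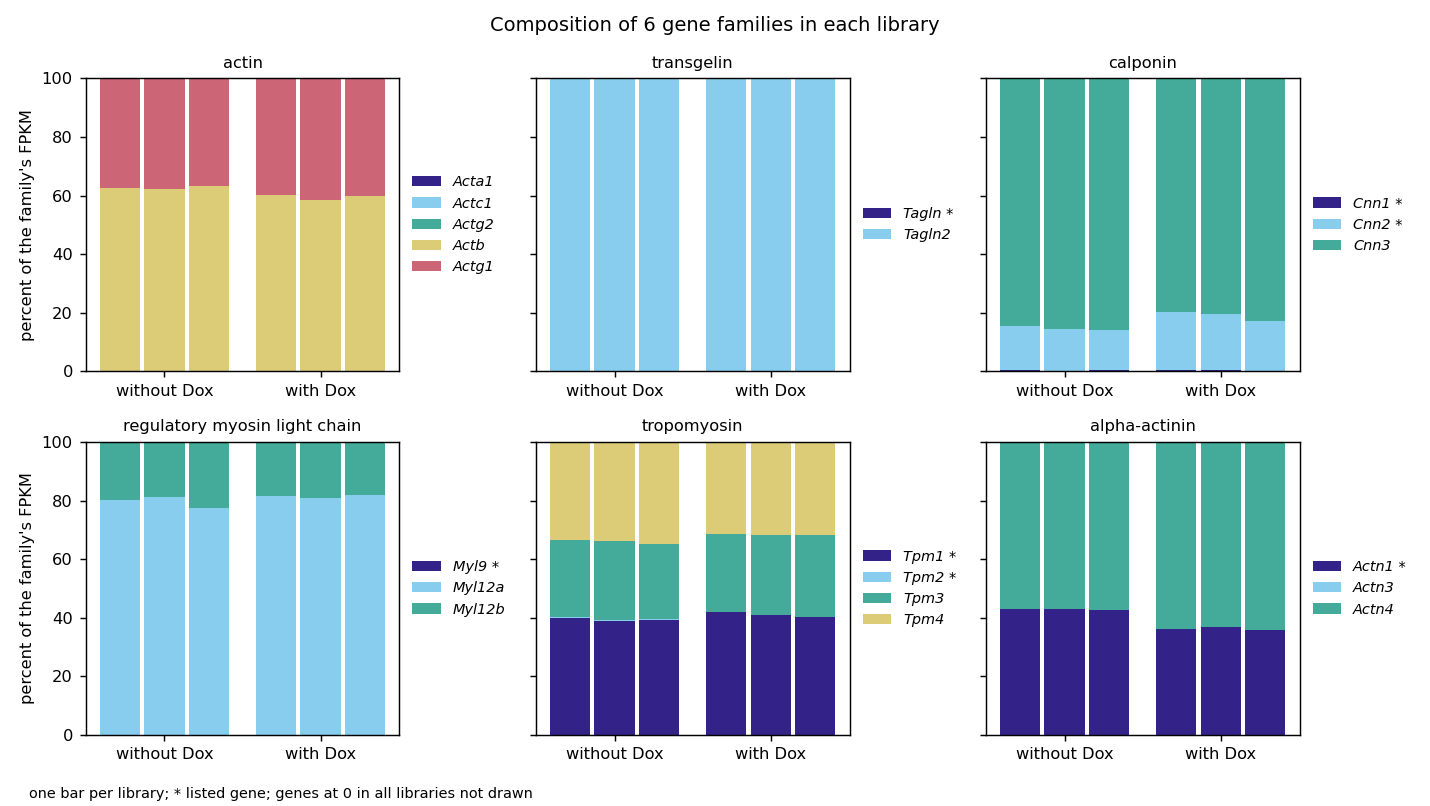
Share of each gene in the summed FPKM of its family (vertical axis, percent) for 6 families, with 1 bar per library, the 3 without Dox on the left of each panel and the 3 with Dox on the right, and asterisks at members of the list. Tagln and Myl9 are too small to be seen, Cnn1 is a thin line, Actn1 is about 43% of the alpha-actinin bars without and about 36% with Dox, and Cnn2 is a larger part of the calponin bars with Dox.

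Of 22 listed genes for SRF, its MRTF coactivators and upstream actin regulators, 21 were in the table and 20 were tested. In these 20, 1 rose, 6 fell and 13 did not pass the threshold, with a median log2 fold change of -0.07, beside 7.06% higher and 7.97% lower among all genes tested. Srf was at 35.2 ± 0.798 FPKM without and 37.4 ± 0.412 with Dox (0.09, limma adjusted p = 0.231), Mkl1, or MRTF-A, at 47.8 ± 0.0826 and 46.5 ± 1.36 (-0.04, adjusted p = 0.591), and Mkl2, or MRTF-B, at 23.4 ± 1.74 and 27.7 ± 2.95 (0.24, adjusted p = 0.133). Of 31 stress fibre and focal adhesion genes, 30 were tested, 4 rose, 7 fell and 19 did not pass the threshold, with a median of -0.05, beside the same shares. Both lists were chosen with earlier results of these data known.

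The 3 lowest fold changes among the genes of these lists that passed the threshold belonged to Cfl2, Ppm1f and Fhod1. Cfl2, or cofilin-2, the muscle-type cofilin that severs actin filaments, fell from 93.1 ± 2.87 to 39.3 ± 1.47 FPKM (log2 fold change -1.24, SE 0.0464, limma adjusted p = 2.04e-05). Ppm1f, a protein phosphatase known to act on the kinase PAK, fell from 27.9 ± 0.695 to 11.8 ± 0.403 FPKM (-1.23, adjusted p = 5.03e-05), and Fhod1, a formin of stress fibres, from 30.4 ± 3.41 to 15.9 ± 1.35 FPKM (-0.93, adjusted p = 0.00161). The 3 highest belonged to adhesion proteins. Lasp1, an actin-binding adaptor, rose from 163 ± 1.24 to 203 ± 4.73 FPKM (0.31, adjusted p = 0.0010), Fhl2, a LIM protein and SRF cofactor, from 60.7 ± 1.30 to 73.2 ± 0.432 FPKM (0.27, adjusted p = 0.00413), and Vcl, or vinculin, which binds alpha-actinin at adhesions, from 74.4 ± 1.90 to 89.2 ± 1.68 FPKM (0.26, adjusted p = 0.00519).

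**Figure D4:**
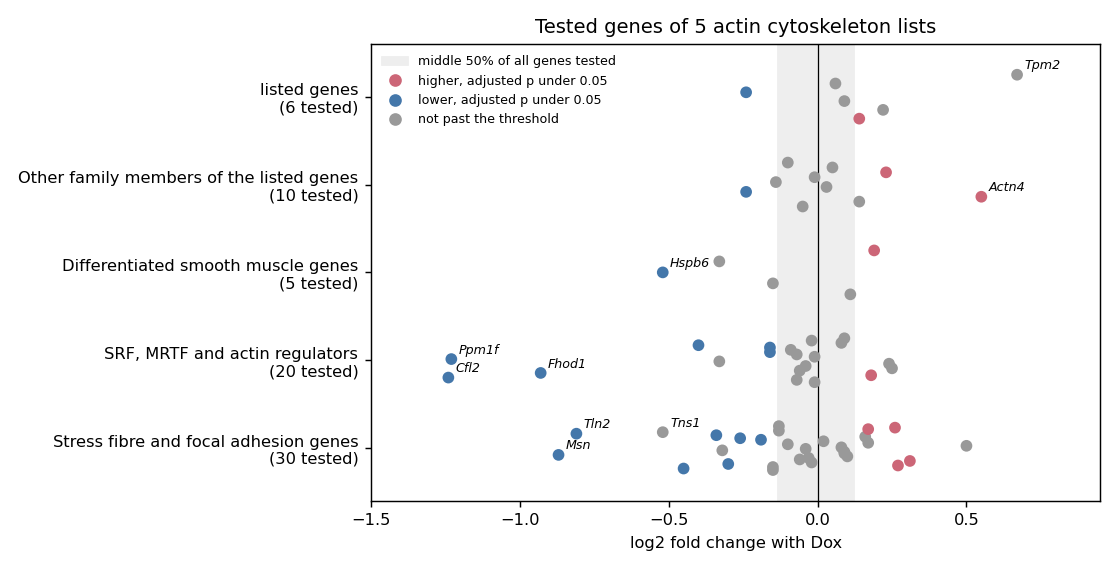
Log2 fold change with Dox (horizontal axis) of each tested gene in 5 lists of the actin cytoskeleton, 1 point a gene, with the call in colour and the quartiles of all genes tested, -0.13 and 0.12, as the grey band. The members lie between -0.24 and 0.67, and the points farthest to the left are the regulators Cfl2, Ppm1f and Fhod1.

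No member carried a full match to the miR-200c seed in its 3′ UTR. The 7 bases searched were CAGTATT on the sense strand, which pair with bases 2 to 8 of the microRNA, in the longest 3′ UTR of a protein-coding transcript in the GENCODE M21 annotation of GRCm38. These UTRs were 329 bases (Flna) to 1899 bases (Tpm1) long in the members, against a median of 1201 bases. None of the 10 held the 7 bases, whereas 1737 of 10798 tested genes with a UTR did (16.1%). With the 6 bases AGTATT, which pair with bases 2 to 7 and lie inside the 7-base motif, 3 members had a match (Cnn2, Flnc and Actn1), against 36.8% of those genes. Their log2 fold changes were 0.22, -0.24 and 0.14 in this order, of which the last pair passed the threshold.

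Among the genes of the other lists, the 7-base match was found in several that fell. It was also found in Mkl2, Rock2 and Pdlim5, which did not pass the threshold (log2 fold change 0.24, -0.02 and -0.1). The windows shown are examples, all of them from genes that fell. Each runs 5′ to 3′ along the transcript on GRCm38, with the bases opposite the seed in capitals. They lie in the 3′ UTRs of Cnn3 (chr3:121457434-121457460, plus strand), Cfl2 (chr12:54860962-54860988, minus strand), Ppm1f (chr16:16924684-16924710, plus strand) and Fhod1 (chr8:105329280-105329306, minus strand). Cfl2, Ppm1f and Fhod1 have a further match each.
Cnn3: cacaggagcgCAGTATTtagtccattg
Cfl2: agaagcctgtCAGTATTgccatgagac
Ppm1f: aatccagaatCAGTATTcaggctttgt
Fhod1: acccagaaacCAGTATTgtgaacagta

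Of the tested genes of the 4 lists, 10 had at least 1 such match, and 7 of them were lower, 0 higher and the median log2 fold change was -0.53. Of the 53 without a match, 8 were lower and 8 higher, with a median of -0.02. Over all tested genes with a UTR, 17.3% of the 1737 with a match were lower and 4.15% higher with Dox, and of the 9061 without a match 7.33% were lower and 8.53% higher. The 4 lists were chosen with earlier results of these data known, so their counts cannot be read as a rate for actin genes. All these shares describe sequence and change side by side and no test was made of them.

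The promoters of the members were also read for CArG boxes, the binding motif of SRF, on both strands in the RefSeq windows of GRCm38.p6 from 250 bases before to 50 after the start site. Windows were found for 9 members, all but Tagln. A strict box was present in 2 of the 9, Myl9 and Cnn2, against 535 of all 32851 promoter windows (1.63%). When 1 mismatch in the AT core was allowed, 4 members held a box (Myl9, Cnn2, Acta2 and Flnc), against 9.98% of windows. A member was counted when any of its windows held a box, whereas the shares are of single windows, so the units differ. The stretches around them, except for a further near match in Myl9, are shown because they set smooth muscle isoforms at or near 0 beside members with clear levels. The box is in capitals, strict in the first pair and with 1 mismatch in the rest, and its first base lies 161, 56, 84, 34 and 163 bases before the start site in this order. The coordinates are chr2:156775283-156775332 (plus strand), chr10:79988524-79988573 (plus), chr19:34255428-34255477 and chr19:34255378-34255427 (both minus), and chr6:29432970-29433019 (plus).
Myl9: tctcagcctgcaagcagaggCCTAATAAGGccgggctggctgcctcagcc
Cnn2: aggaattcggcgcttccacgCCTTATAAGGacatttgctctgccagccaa
Acta2, distal: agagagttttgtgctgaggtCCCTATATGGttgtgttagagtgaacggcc
Acta2, proximal: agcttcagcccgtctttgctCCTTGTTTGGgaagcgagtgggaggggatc
Flnc: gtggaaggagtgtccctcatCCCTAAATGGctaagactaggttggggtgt

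Myl9 holds a strict box and a further near match 99 bases before the start site, and Acta2 a pair of near matches. Both genes were at or near 0 in every library. Tpm1, Flna and Actn1, the 3 members with the highest levels, showed no box of either kind in these windows. Cnn1 (0.505 to 1.12 FPKM) and Tpm2 (0.870 to 2.04 FPKM) showed none either. Cnn2 holds a strict box and was at 51.8 to 66.8 FPKM. Flnc, at 39.6 to 49.0 FPKM, holds a near match in its window at chr6:29432903-29433202. Its other window, chr6:29433006-29433305, holds no box of either kind. Start sites of these genes outside the windows were not read. A match in a window is a description of its letters only, and binding of SRF was not measured.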

How the data were processed

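RNA-seq was analysed from 6 libraries, 3 with vehicle and 3 with Dox. Per the labels and the study's methods, the authors made stranded libraries, sequenced single reads of 50 bases, aligned them with gSNAP to GRCm38.p6 (the methods also name an FVB/NJ assembly) and computed FPKM per gene with Cufflinks. Their versions were not given in the sources used here. The deposited FPKM table also holds the authors' group means, fold changes, p-values and q-values, which were not used. Of 43611 rows, 63 were repeats of an identifier and were dropped, and a placeholder value at 6 places in 4 genes was treated as missing, which left 12875 genes with all 6 values.

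Testing was done where the mean over the 6 libraries reached 1 FPKM, on log2(FPKM + 0.1), 3 against 3 libraries, with limma 3.58.1 (trended empirical Bayes, R 4.3.3) and Benjamini-Hochberg adjustment over all genes tested, at an adjusted p under 0.05. A fold change on this scale understates that of low genes. Members under the filter were read from a fit of all genes above 0 in any library. Shares within families were compared by an exact two-sided permutation test (scipy 1.17.1). The scripts were tested on simulated data with known changes. FPKM values hold no read totals, so the depth is unknown. The relative depth read from the steps of low values ran from 0.92 to 1.487, with vehicle library 1 as 1. Shared sequence was read with BLAST 2.17.0 on GENCODE M21 transcripts, as the share of 50-base windows of a gene's longest transcript found in another gene's transcript on the same strand with at most 2 mismatches. Figures were drawn with matplotlib 3.10.9.

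The members and all lists were chosen with earlier results of these data known. The genes named were the 10 members, the genes of their families, Zeb1 and Zeb2, and of the other lists the 3 highest and 3 lowest fold changes past the threshold. Some genes of the lists, and the shares within the filamins, are not reported here. Genes named outside this rule (Vim, Krt18, Srf, Mkl1, Mkl2 and others) describe the cells, name a factor of the background or illustrate a count. The alternatives were other pseudocounts, filters, scalings, variance models and tests, the replicate number as a block, and leaving out each library.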

Additional observations from a re-analysis of the deposited data

How the results depend on the processing

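Genes past the threshold numbered 1935, between 1290 and 1992 under other pseudocounts, filters, scalings, variance models and tests, 1337 with a replicate block in the fit, and between 1048 and 1359 when 1 library was left out. The replicate numbers do not pair the samples, since the correlations of the deviations of same-numbered libraries were 0.0287, 0.0359 and -0.00759. Of the 10 members, 2 passed, and 1 did without the trend in limma and with the replicate block (Flnc in both), and between 0 and 2 when a library was left out, 0 without vehicle library 2. The count of members higher was 1, and 0 without the trend and with the block, and that of members lower was 1, each between 0 and 1 when a library was left out. With the block the adjusted p of Actn1 was 0.0549. When a library was left out, the log2 fold change of Tagln ran from -0.77 to 0.35, its sign turning without vehicle library 2, and that of Cnn1 from -0.14 to 0.41, turning without vehicle library 2 and without Dox library 1 (-0.09). That of Myl9 ran from -0.65 to 0.0, reached without vehicle library 3, the one library that held its signal. Apart from these, of 128 recomputed member fold changes 115 kept their direction and side of the threshold, 8 lost it and 1 gained it, and the cause was not tested. The shares recomputed, those of 12 family genes, kept their direction or stayed within their spread, and those of the genes at low levels, Cnn1 and Tpm2 among them, were not recomputed. A seed match of 6 bases was found in 3 members against 0 for 7 bases, and a CArG box with 1 mismatch in 4 against 2. Tpm2 was not tested at a minimum mean of 5 FPKM, and Acta2 gave no value in any analysis. The depth is unknown, so no lower limit of detection can be given for the members near 0.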

Other observations

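Genes outside the naming rule, chosen after their values were seen, add to the picture of the actin-membrane and adhesion machinery. Msn, or moesin, which links actin to the plasma membrane, was at 452 ± 10.6 FPKM without and 246 ± 1.95 with Dox (SD, n = 3 each, log2 fold change -0.87, limma adjusted p = 1.11e-05). Both talins, which couple integrins to actin, were lower, Tln1 at 136 ± 2.07 against 108 ± 1.30 FPKM (-0.34, adjusted p = 8.50e-04) and Tln2 at 15.7 ± 0.304 against 8.89 ± 0.543 FPKM (-0.81, adjusted p = 7.31e-04). Within the 4 actin lists, the tested genes with a miR-200c 7-base match and a lower call were Cnn3, Cfl2, Ppm1f, Fhod1, Tln2, Msn and Rhoa. The tested genes with a match that did not pass the threshold were Mkl2, Rock2 and Pdlim5. Whether miR-200c acts on any of them was not tested.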
